A study of Mus musculus with 3 samples.

Results

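The nuclear respiratory chain genes are the genes of the cell nucleus that encode subunits of complexes I to V of oxidative phosphorylation. They were taken by symbol (Ndufa, Ndufb, Ndufc, Ndufs and Ndufv genes for complex I, Sdh for II, Uqcr for III, 12 Cox genes for IV and Atp5 genes for V), which gave 78 entries with 77 symbols among the 55450 genes of the deposited tables. Complex I had 36 entries, complex II 4, complex III 8, complex IV 12 and complex V 18. The symbol Atp5o has 2 entries, of which ENSMUSG00000116933 held 0 UMIs in all 3 libraries, so Atp5o below is ENSMUSG00000022956. UMIs are molecules counted once by their tag.

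RNA of single cells from dissociated mouse pancreas was counted in 3 libraries, 1 per group. The first came from sedentary mice and is labelled none (its labels state neither genotype, sex nor age). The others are labelled diabetic and were sedentary (diabetic sedentary) or exercised (diabetic exercise). The design text speaks of db/db males, a strain without functional leptin receptor, and of treadmill training from 6 weeks of age. How many animals were pooled per library, and what the 3 that ends each title means, is not stated. With 1 library per group there is no replicate check: each ratio compares 2 libraries and not 2 conditions, and its 95% interval (exact Poisson for UMI counts) covers counting error only. Both comparisons, diabetic sedentary over none and diabetic exercise over diabetic sedentary, share the diabetic sedentary library. Values for the libraries are given in the order none, diabetic sedentary, diabetic exercise.

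Complexes I, III and IV pass electrons from NADH to oxygen and pump protons across the inner mitochondrial membrane, complex II feeds in electrons from succinate, and complex V (ATP synthase) uses the proton gradient to make ATP. Complexes I, III, IV and V combine nuclear-encoded subunits with subunits encoded in mitochondrial DNA, whereas complex II is wholly nuclear-encoded. Acinar cells, which fill most of the exocrine pancreas, spend much ATP on the synthesis and secretion of digestive enzymes.

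The libraries held 54128454, 80185752 and 45209034 UMIs in 9958, 12743 and 18433 barcodes, of which 8711, 11019 and 15069 were kept. Between 32 and 61 barcodes were shared by any pair of libraries. Cells were clustered and named from markers, hence "acinar-like" and so on. Ratios are given for acinar-like, ductal-like, endothelial-like, fibroblast-like and macrophage-like cells, and for mural-like cells only between the diabetic libraries, since none held 45 of them. Acinar-like cells of the libraries fell into different clusters: 4110 of 6375 cells of none lay in a cluster led by Amy2a5 and Amy2b, and 3506 of 6034 cells of diabetic sedentary in a cluster led by Reg2 and Reg3a, as did 892 of 1766 of diabetic exercise. A ratio in acinar-like cells therefore also compares those clusters. Barcodes rich in acinar RNA but led by mitochondrial or other genes (796, 2543 and 10915) stayed unnamed and were left out. UMIs of acinar markers were found in every class, and whether they came from free RNA, from doublets or from the cells themselves was not tested. Acinar RNA, estimated from acinar marker genes, made up 43.9%, 29.0% and 26.0% of UMIs in ductal-like cells, 62.6%, 43.4% and 48.7% in endothelial-like cells, 56.6%, 41.8% and 38.4% in fibroblast-like cells, 52.2%, 37.7% and 36.5% in macrophage-like cells and 77.2%, 53.3% and 44.1% in mural-like cells.

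Before the values, 3 promoters are shown as examples, chosen after the data were seen. Their genes moved in 1 direction in all 5 classes measured in every library, as did other members. From none to diabetic sedentary 29 of 74 members were lower in all 5 (8.42% of all genes) and 0 higher (6.45%). Most of the 29 were no longer lower in all 5 when scaled to total UMIs. From diabetic sedentary to diabetic exercise 3 of 74 were higher in all 5 (9.47% of all genes) and 20 lower (13.4%). Cox8a (a structural subunit of complex IV) and Atp5j (coupling factor 6 of complex V) were lower in diabetic sedentary than in none, and Atp5k (subunit e of complex V) was higher in diabetic exercise than in diabetic sedentary. The windows run from 250 bases before to 50 after the start site (RefSeq, GRCm38.p6). Capitals mark the letters of 4 motifs searched on both strands: CGCATGCG for NRF1, CCGGAAG for the ETS factor GABP, AAGGTCA for ERR and AAGATGGCG for YY1, which are factors known to bind promoters of mitochondrial genes.
Cox8a, chr19:7217567-7217866, minus strand: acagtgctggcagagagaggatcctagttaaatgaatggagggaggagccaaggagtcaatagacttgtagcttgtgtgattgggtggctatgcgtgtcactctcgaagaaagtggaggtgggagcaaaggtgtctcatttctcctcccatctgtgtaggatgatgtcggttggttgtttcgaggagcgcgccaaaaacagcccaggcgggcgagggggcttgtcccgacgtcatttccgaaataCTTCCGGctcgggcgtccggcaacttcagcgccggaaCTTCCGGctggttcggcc
Atp5j, chr16:84834927-84835226, minus strand: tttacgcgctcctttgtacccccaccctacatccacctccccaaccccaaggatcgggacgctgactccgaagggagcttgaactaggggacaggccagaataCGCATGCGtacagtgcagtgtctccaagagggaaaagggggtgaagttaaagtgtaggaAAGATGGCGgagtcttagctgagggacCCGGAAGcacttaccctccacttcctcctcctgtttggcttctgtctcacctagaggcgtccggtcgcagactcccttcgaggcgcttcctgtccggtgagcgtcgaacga
Atp5k, chr5:108434350-108434649, minus strand: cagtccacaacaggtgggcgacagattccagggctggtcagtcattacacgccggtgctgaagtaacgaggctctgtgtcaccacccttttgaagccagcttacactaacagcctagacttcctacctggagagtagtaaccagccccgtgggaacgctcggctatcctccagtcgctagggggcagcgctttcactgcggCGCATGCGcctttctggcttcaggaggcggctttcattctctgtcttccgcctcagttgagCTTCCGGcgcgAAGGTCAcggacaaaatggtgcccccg
The Cox8a window held 2 ETS matches, the Atp5j window held NRF1, YY1 and ETS matches, and the Atp5k window held NRF1, ETS and ERR matches. Of the 77 symbols, 63 had a window. NRF1 letters were found for 9 of 63 members (14.3%) against 2.07% of 27025 genes with a window, and ETS letters for 16 members (25.4%) against 9.93%. ERR letters were found for 8 members (12.7%) against 5.38% of genes, and YY1 letters for 7 members (11.1%) against 1.64%. A match is a description of letters and not of binding, and no link between letters and direction was tested.

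Outside acinar markers and mitochondrial genes, members took a larger RNA share in acinar-like, ductal-like and mural-like cells than in the other 3 classes compared. As a share of UMIs outside acinar markers and mitochondrial genes, members made up 2.40%, 2.33% and 2.57% in acinar-like cells. In ductal-like cells, which line the ducts that carry enzymes to the gut, the shares were 2.55%, 2.31% and 2.21%. Mural-like cells, the contractile cells around vessels, held 2.20%, 1.963% and 2.42%.
Endothelial-like (1.72%, 1.49%, 1.69%), fibroblast-like (1.60%, 1.47%, 1.48%) and macrophage-like cells (1.72%, 1.63%, 1.69%) held less in every library. Erythroid-like cells, whose mature forms lose their mitochondria, held 0.851%, 0.506% and 0.488%. The ranges of acinar-like and ductal-like cells overlapped each other, and neither overlapped those of endothelial-like, fibroblast-like or macrophage-like cells. Of all UMIs, which include digestive enzyme RNA, members made up only 0.493%, 0.417% and 0.525% in acinar-like cells, the lowest of the classes compared. Ductal-like cells held 1.64%, 1.70% and 1.67%, and endothelial-like cells 0.851%, 0.912% and 0.934%. Fibroblast-like cells held 0.869%, 0.924% and 0.966%, and macrophage-like cells 0.995%, 1.08% and 1.13%. Mural-like cells, at 0.833%, 1.04% and 1.41%, lay below macrophage-like cells in none and diabetic sedentary.

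**Figure D1:**
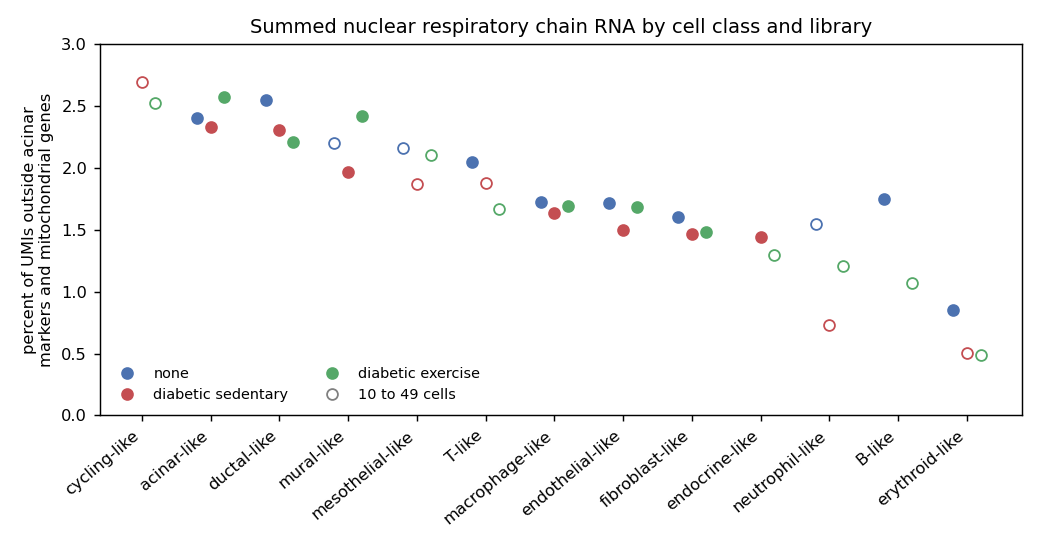
Summed UMIs of the nuclear respiratory chain genes (y axis, percent of UMIs outside acinar markers and mitochondrial genes) by cell class (x axis) and library (colour), classes ordered by their median. Open circles are classes of 10 to 49 cells in that library, smaller ones are not drawn, and erythroid-like cells lie lowest, at 0.488% to 0.851%.

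Single members differed widely in abundance. Cox4i1, a regulatory subunit of complex IV, had the most UMIs of all members (53704). It stood at 262, 249 and 246 CPM (UMIs scaled to a common adjusted library total) in acinar-like cells and at 1054, 992 and 876 CPM in ductal-like cells. The other leading genes were Cox8a and Cox7a2 in complex IV, Ndufa4, Ndufa2 and Ndufb9 among the complex I entries, Sdha, Sdhb and Sdhc in complex II, Uqcrq, Uqcrh and Uqcr10 in complex III, and Atp5e, Atp5j2 and Atp5g1 in complex V.
Isoform genes differed widely. Of the genes for the identical c-ring protein of complex V, Atp5g1 held 21379 UMIs, Atp5g3 14345 and Atp5g2 677. Of the complex IV isoforms, Cox7a2 held 19936 UMIs and Cox7a1, the heart and muscle form, 86. Cox7a2l, which joins complexes III and IV into supercomplexes, held 16193. Entries for processed copies carry the ending -ps in the tables, and these held 9 UMIs against 1002347 for members, although reads shared with unlisted copies could not be told apart.

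Some members stood apart by class in all 3 libraries, by over 0.3 (log2) from the gene's median over classes after each class was centred. Acinar-like cells had 14 such members above, among them Uqcrq (subunit of complex III), Atp5e and Atp5g1 (complex V) and Ndufv3 and Ndufb9 (complex I). They had 7 below, among them Sdha, the succinate-oxidizing flavoprotein of complex II, Ndufs1, a core subunit of complex I, and Cox8a.
Other classes had 1 to 3 above and 2 below. Ductal-like cells were above for Uqcrc2 (core protein of complex III), Atp5a1 (alpha subunit of complex V) and Atp5s, and below for Ndufa1 and Uqcrq. Endothelial-like cells were above for Ndufa8 and Ndufc2 and below for Atp5g3 and Atp5mpl. Sdhb, the iron-sulfur subunit of complex II, was above in macrophage-like cells, Ndufs1 in fibroblast-like cells and Cox8a in mural-like cells. The same cells set the clusters, so these are descriptions without a test. Only members were counted in this way, so the counts do not show whether members differ by class more than other genes do.

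Diabetic sedentary over none, members were lower in ductal-like, endothelial-like, fibroblast-like and macrophage-like cells and close to unchanged in acinar-like cells, on scaling factors that hold the median of all genes near 0. The median log2 ratio over members was -0.18 in ductal-like (all genes 0.01), -0.27 in endothelial-like (all genes 0.04), -0.24 in fibroblast-like (all genes 0.01), -0.27 in macrophage-like (all genes -0.01) and -0.03 in acinar-like cells (all genes -0.01). Scaled to total UMIs alone, the first 4 medians turned positive (0.12, 0.17, 0.14 and 0.093). The members' median stayed below that of all genes in those 4 classes under every setting tried, the total included, by 0.13 at the least. The fall in the estimated share of acinar RNA, given above, moves with this result, and its part was not tested beyond the values with acinar RNA subtracted (-0.10 in endothelial-like, -0.13 in fibroblast-like and -0.17 in macrophage-like cells). Transcript length moves with the result as well: members are short. Their median is 810 bases in GENCODE M21, against 1102 over all 55450 genes listed, measured or not. Of genes measured, 538 of 11275 in ductal-like and 347 of 7329 in endothelial-like cells were under 810 bases. In fibroblast-like cells 399 of 8912 were, and in macrophage-like cells 390 of 7061. Of members measured, 38 of 77, 37 of 75, 36 of 74 and 37 of 75 were, in the same order. Of all genes, those under 810 bases had medians of -0.21, -0.20, -0.22 and -0.25 in ductal-like, endothelial-like, fibroblast-like and macrophage-like cells, and longer ones 0.02, 0.05, 0.02 and -0.00096. Members under 810 bases stood at -0.23, -0.31, -0.28 and -0.30, below the short genes at large in each class. Longer members stood at -0.16, -0.21, -0.23 and -0.25, below the longer genes at large in each class. Lengths were not matched beyond this split, and the part of length in the result was not tested further.

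Few members passed 1.5-fold. In acinar-like cells 0 of 76 members were at least 1.5-fold higher (11.1% of all genes were) and 0 lower (12.7%). Ductal-like cells had 1 of 77 higher (14.4% of all genes) and 5 lower (10.7%). In endothelial-like cells 4 of 75 were higher (21.8%) and 16 lower (14.4%), the only class in this comparison where the members' share passing in 1 direction was above that of all genes. Fibroblast-like cells had 0 of 74 higher (15.5%) and 5 lower (12.4%). Macrophage-like cells had 0 of 75 higher (13%) and 4 lower (13.2%). The members' shift was thus a small one over many genes: 61 of 77, 58 of 75, 61 of 74 and 64 of 75 members lay below 0 in ductal-like, endothelial-like, fibroblast-like and macrophage-like cells, and 40 of 76 in acinar-like cells.

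**Figure D2:**
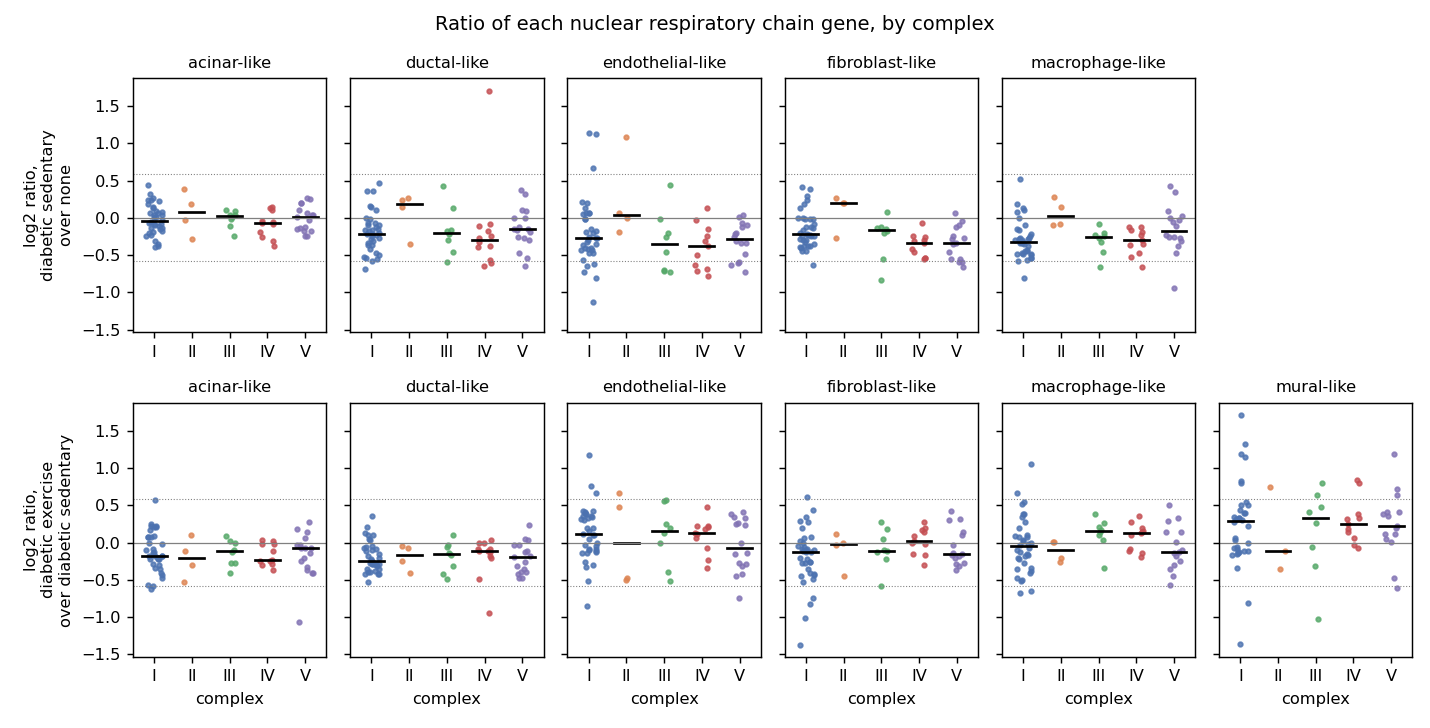
Log2 ratio of each member (points; y axis) by complex (x axis) in each cell class, diabetic sedentary over none above and diabetic exercise over diabetic sedentary below; bars are medians and dotted lines mark 1.5-fold. In the upper panels most points lie below 0 outside acinar-like cells (the medians turn positive when scaled to total UMIs), and complex II lies above the other complexes.

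Complex I summed to 0.84 (0.82 to 0.86), 0.83 (0.78 to 0.88) and 0.87 (0.83 to 0.90) of none in ductal-like, endothelial-like and fibroblast-like cells. In macrophage-like and acinar-like cells it summed to 0.81 (0.77 to 0.84) and 0.95 (0.94 to 0.96). Ndufa13 (an accessory subunit of complex I) was at 211, 96.8 and 111 CPM in endothelial-like cells, a ratio of 0.458 (0.349 to 0.607) for diabetic sedentary over none. It was highest in none, with the diabetic libraries close together. Ndufa3, another accessory subunit, was at 241, 150 and 163 CPM in ductal-like cells (0.620, 0.543 to 0.711).
Not every subunit was lower. Ndufv1, a core subunit which binds NADH, was at 75.2, 96.8 and 79.1 CPM in ductal-like cells (1.29, 1.03 to 1.63).
Higher members were Ndufa10 in acinar-like cells (24.5, 33.2 and 34.9 CPM; 1.35, 1.2503 to 1.47), Ndufa8 in macrophage-like cells (51.6, 74.1 and 46.1 CPM; 1.44, 1.01 to 2.04) and Ndufb3 in endothelial-like cells (9, 110 and 54 UMIs; 2.21, 1.12 to 4.97). Ndufb4 was the lowest member in acinar-like cells (8.45, 6.43 and 5.05 CPM; 0.762, 0.650 to 0.892). Intervals of Ndufs1 in ductal-like cells (1.39, 0.951 to 2.10), of Ndufs8 (1.31, 0.878 to 2.01) and Ndufa12 (1.34, 0.763 to 2.47) in fibroblast-like cells included 1.

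Complex II stood apart from the others. Its 4 genes summed to 1.03 (0.93 to 1.15) of none in ductal-like and 1.03 (0.78 to 1.37) in endothelial-like cells. In fibroblast-like, macrophage-like and acinar-like cells they summed to 1.07 (0.90 to 1.29), 1.07 (0.89 to 1.27) and 1.03 (0.97 to 1.09). Relative to the other complexes, which needs no scaling factor, complex II was higher in diabetic sedentary than in none by 1.23 (1.10 to 1.36) in ductal-like, 1.32 (1.11 to 1.58) in fibroblast-like, 1.27 (1.07 to 1.51) in macrophage-like, 1.31 (0.99 to 1.72) in endothelial-like and 1.07 (1.003 to 1.13) in acinar-like cells. The 5 ratios lay above 1, and so they did under every alternative setting that applies to them, with the lowest 1.05 to 1.19 by class. Estimated acinar RNA, which fell from none to diabetic sedentary outside acinar-like cells, moves with these ratios, although they need no scaling factor. In none, complex II held 1987 of 205267 member UMIs in acinar-like cells. It held 421 of 23236 in ductal-like, 61 of 3642 in endothelial-like, 175 of 10132 in fibroblast-like and 266 of 13849 in macrophage-like cells. Transcript length moves with these ratios as well. Sdhb (1142 bases), Sdhd (1231), Sdha (2900) and Sdhc (3171) are all longer than the members' median of 810 bases. Members longer than that median had higher log2 medians than shorter members in the same 5 classes. The part of length in the complex II ratios was not tested, and that of acinar RNA was not tested beyond the settings run.
Complex II rests on few UMIs, from 61 (endothelial-like, none) to 2253 (acinar-like, diabetic sedentary). Sdha was at 126, 139 and 134 CPM in ductal-like cells (1.10, 0.925 to 1.32) and at 60.8, 73.5 and 71.6 CPM in fibroblast-like cells (1.21, 0.890 to 1.66). Sdhc, a membrane anchor, was at 12.4, 16.2 and 11.2 CPM in acinar-like cells, high in diabetic sedentary alone (1.31, 1.17 to 1.47). Sdhb went the other way in acinar-like (17.9, 14.8 and 12.002 CPM; 0.825, 0.742 to 0.917) and ductal-like cells (110, 86.3 and 65.2 CPM; 0.782, 0.645 to 0.955). Sdhd, the other anchor, had 4, 48 and 16 UMIs in endothelial-like cells (2.17, 0.795 to 8.29).

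**Figure D3:**
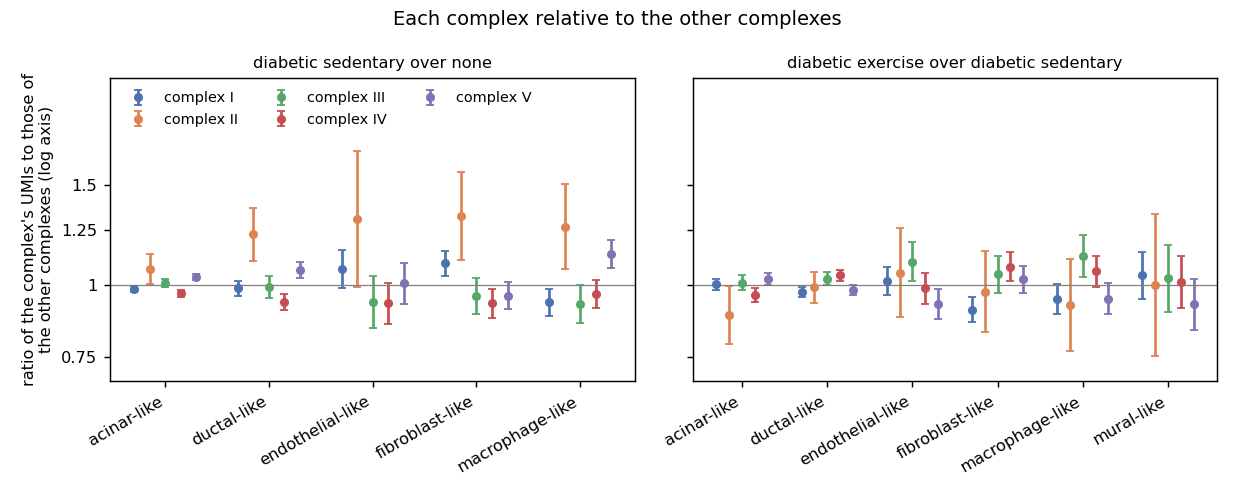
Change in the UMIs of each complex relative to the other complexes (y axis, log scale; points are ratios, bars 95% intervals for counting error) by cell class (x axis). Complex II (orange) lies above 1 in the 5 classes for diabetic sedentary over none, at 1.07 to 1.32.

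Complex III was at 0.84 (0.80 to 0.87), 0.75 (0.68 to 0.83) and 0.79 (0.74 to 0.84) of none in ductal-like, endothelial-like and fibroblast-like cells. In macrophage-like and acinar-like cells it was at 0.79 (0.74 to 0.85) and 0.97 (0.96 to 0.99). Uqcrq, a small subunit near the ubiquinone site, was at 361, 202 and 244 CPM in fibroblast-like cells (0.560, 0.486 to 0.647) and at 349, 213 and 313 CPM in endothelial-like cells (0.610, 0.498 to 0.752). Diabetic sedentary was the low library in both. Uqcrc1, a core protein, was at 97.7, 131 and 97.2 CPM in ductal-like cells, the opposite order (1.34, 1.10 to 1.64).
The Rieske protein Uqcrfs1, which passes electrons to cytochrome c1, was at 84.5, 52.0 and 56.6 CPM in endothelial-like cells (0.615, 0.406 to 0.958). Uqcr11 was at 197, 125 and 138 CPM in macrophage-like cells (0.635, 0.510 to 0.789).

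Complex IV was at 0.80 (0.78 to 0.83), 0.75 (0.70 to 0.81) and 0.77 (0.74 to 0.81) of none in ductal-like, endothelial-like and fibroblast-like cells. In macrophage-like and acinar-like cells it was at 0.82 (0.78 to 0.86) and 0.94 (0.93 to 0.95). Cox8a was at 104, 80.3 and 78.8 CPM in acinar-like, 655, 417 and 413 CPM in ductal-like, and 355, 206 and 241 CPM in endothelial-like cells. It was at 326, 224 and 255 CPM in fibroblast-like and at 413, 323 and 360 CPM in macrophage-like cells. None was the highest library in each class, and the ratios to it ran from 0.582 (0.475 to 0.716) in endothelial-like to 0.783 (0.680 to 0.901) in macrophage-like cells.
Cox4i1 was closer to its level in none, at a ratio of 0.950 (0.925 to 0.9753) in acinar-like and 0.710 (0.609 to 0.831) in endothelial-like cells. Cox7b was at 220, 139 and 153 CPM in macrophage-like cells (0.631, 0.512 to 0.775). Cox7a2l was at 458, 302 and 261 CPM in ductal-like cells (0.660, 0.600 to 0.728), and Cox7a2 at 394, 302 and 284 CPM (0.765, 0.691 to 0.848). Cox7a1 had 2, 34 and 19 UMIs in ductal-like cells and at most 6 in any other named class and library, too few for a ratio of use (3.46, 0.886 to 29.7).

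Complex V was at 0.88 (0.86 to 0.91), 0.80 (0.74 to 0.86) and 0.79 (0.76 to 0.83) of none in ductal-like, endothelial-like and fibroblast-like cells. In macrophage-like and acinar-like cells it was closer to none, at 0.93 (0.88 to 0.97) and 0.99 (0.98 to 0.998). Atp5e, the epsilon subunit, was at 628, 402 and 416 CPM in ductal-like (0.641, 0.590 to 0.696) and at 360, 231 and 301 CPM in endothelial-like cells (0.642, 0.526 to 0.787). Atp5o, part of the peripheral stalk, was at 172, 109 and 120 CPM in fibroblast-like cells (0.633, 0.517 to 0.777), but at 88.8, 107 and 117 CPM in acinar-like cells (1.20, 1.15 to 1.253).
The catalytic beta subunit Atp5b was higher in ductal-like cells (394, 490 and 409 CPM; 1.24, 1.13 to 1.37) and lower in fibroblast-like cells (227, 187 and 166 CPM; 0.824, 0.697 to 0.976). Its partner Atp5a1 was at 178, 227 and 165 CPM in macrophage-like cells (1.27, 1.06 to 1.54), as was Atp5g3 (99.7, 134 and 105 CPM; 1.35, 1.05 to 1.73), both highest in diabetic sedentary. Atp5g1 was at 163, 98.3 and 115 CPM in endothelial-like cells (0.602, 0.447 to 0.822) and at 108, 128 and 116 CPM in acinar-like cells (1.19, 1.14 to 1.24).

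Direction was shared across the 5 classes by 29 of the 74 members measured in each, which were lower in diabetic sedentary than in none in all 5 (8.42% of all genes were). No member was higher in all 5, against 6.45% of all genes. The 29 included 8 of the 11 complex IV members measured in all 5 classes (Cox4i1, Cox5b, Cox6c, Cox7a2, Cox7a2l, Cox7b, Cox7c and Cox8a), 4 of complex V (Atp5e, Atp5j, Atp5j2 and Atp5l), 3 of complex III (Uqcrq, Uqcrb and Uqcr11) and 0 of complex II. The rest of the 29 were complex I entries. Scaled to total UMIs, 3 members were lower in all 5 and 7 higher. Shares of all genes are given for the main scaling only, and a change of scaling moves all genes of a class together. Cytosolic ribosomal proteins, another abundant group, gave 23 of 77 lower in all 5 classes and 1 higher.

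**Figure D4:**
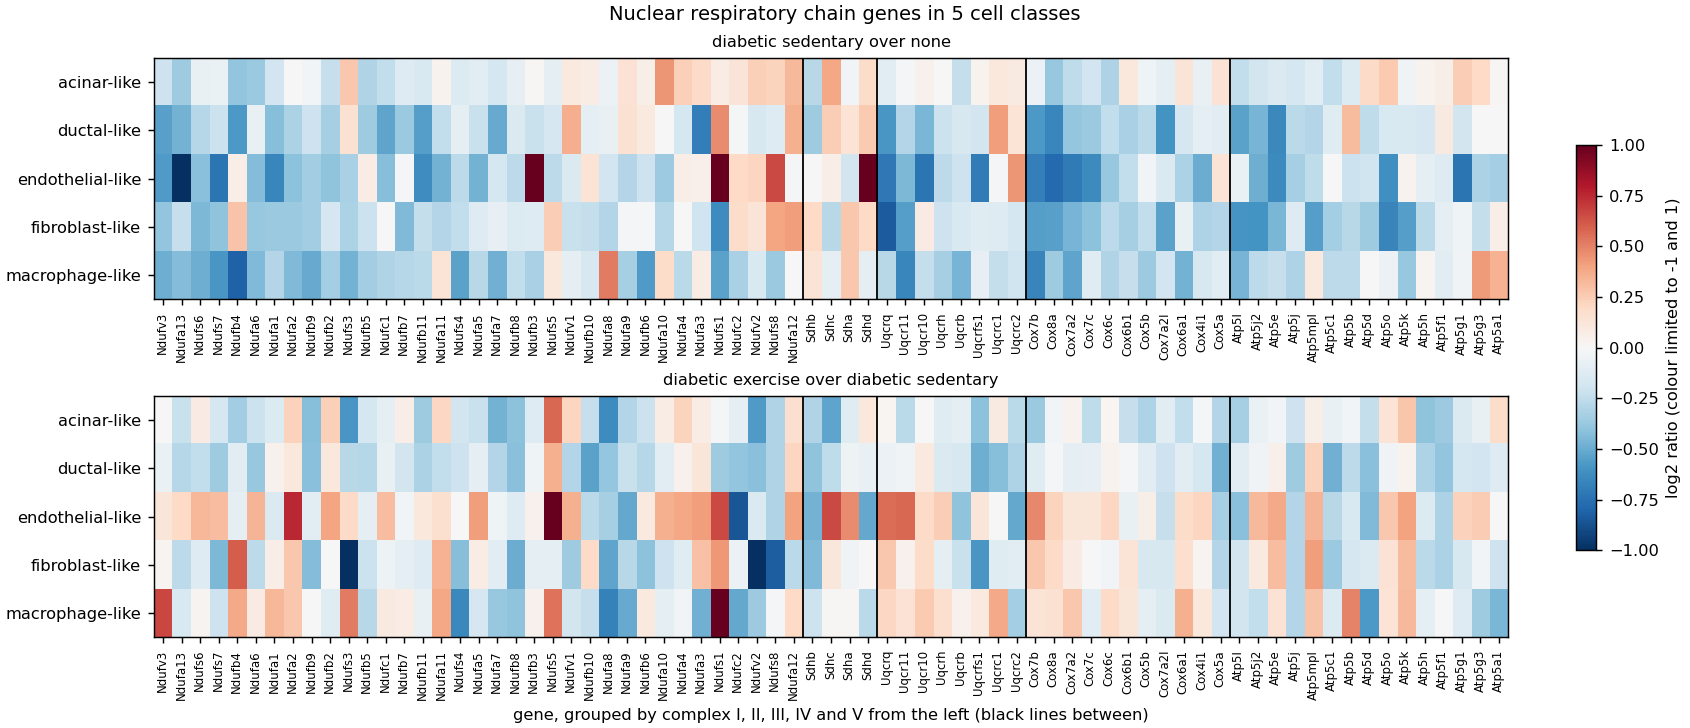
Log2 ratio of members measured in 5 cell classes (columns, by complex; rows are classes; blue lower, red higher, colour limited at -1 and 1). The upper panel is diabetic sedentary over none, with medians that turn positive in 4 classes when scaled to total UMIs. There, blue runs through most of complexes I, III, IV and V outside acinar-like cells. In the lower panel the endothelial-like row is redder than the ductal-like row.

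Diabetic exercise over diabetic sedentary, members differed in direction by class. The median log2 ratio was -0.14 in acinar-like (all genes -0.01), -0.19 in ductal-like (all genes 0.00), -0.11 in fibroblast-like (all genes -0.01), -0.00 in macrophage-like (all genes -0.01), 0.12 in endothelial-like (all genes 0.00) and 0.26 in mural-like cells (all genes 0.00). Scaled to total UMIs the acinar-like median turned to 0.28 and the fibroblast-like one to 0.0043, and thinned to 1000 UMIs per cell the fibroblast-like one turned to 0.094. The total without mitochondrial genes and acinar markers also turned the acinar-like one, to 0.088. The ductal-like, endothelial-like and mural-like medians kept their sign under every setting run, but not their size. The mural-like excess over all genes was 0.26, and 0.063 when thinned, and the endothelial-like one was 0.12, and 0.045 with acinar RNA subtracted. In mural-like cells, from diabetic sedentary to diabetic exercise, estimated acinar RNA went from 53.3% to 44.1% of UMIs and the median mitochondrial share from 4.67% to 8.07%, and in endothelial-like cells from 43.4% to 48.7% and from 4.48% to 7.78%. Mural-like members under 810 bases had a median of 0.39 and longer ones 0.055, against 0.13 and -0.0093 for all genes of those lengths. The part of these in the medians was not tested beyond the subtraction of acinar RNA. Members below 0 were 65 of 77 in ductal-like and 56 of 76 in acinar-like cells, and members above 0 were 43 of 75 in endothelial-like and 49 of 71 in mural-like cells.

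Past 1.5-fold, 0 of 76 members were higher in acinar-like cells (12% of all genes) and 2 lower (11.9%). Ductal-like cells had 0 of 77 higher (9.97%) and 1 lower (5.76%). Endothelial-like cells had 4 of 75 higher (14.2%) and 2 lower (13.2%), fibroblast-like cells 1 of 74 higher (11.9%) and 4 lower (12%), and macrophage-like cells 2 of 74 higher (12%) and 2 lower (11.8%). In mural-like cells 14 of 71 were higher (17.9%) and 4 lower (20.1%). The members' shares were at or below those of all genes except for higher members in mural-like cells, where they were close to it.

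Complex I, which has 36 of the 78 entries, gave most of the named genes. Ndufs5, an accessory subunit on the intermembrane side, was higher in diabetic exercise in acinar-like (10.7, 10.0 and 14.9 CPM; 1.49, 1.21 to 1.83), ductal-like (60.1, 53.5 and 68.6 CPM; 1.28, 1.11 to 1.49), endothelial-like (28.2, 23.4 and 53.4 CPM; 2.28, 1.496 to 3.48) and mural-like cells (14 and 23 UMIs in the diabetic libraries; 2.56, 1.26 to 5.39). In macrophage-like cells its interval included 1 (1.47, 0.825 to 2.63), as it did in fibroblast-like cells (0.937, 0.600 to 1.44). Ndufa4, an electron chain subunit named with complex I and since placed in complex IV, was at 83.8 and 278 CPM in mural-like cells (3.32, 2.25 to 4.96), and Ndufv3 at 56.6 and 131 CPM (2.31, 1.38 to 3.92).
Ndufv3 was also higher in macrophage-like cells (122, 87.1 and 138 CPM; 1.59, 1.21 to 2.10), and Ndufa2 in endothelial-like cells (163, 123 and 207 CPM; 1.69, 1.39 to 2.05). In both the diabetic sedentary library was the lowest of the 3. Lower members were Ndufv2 (62.9, 68.9 and 26.4 CPM; 0.382, 0.252 to 0.563) and Ndufs3 (54.5, 43.7 and 21.4 CPM; 0.490, 0.305 to 0.763) in fibroblast-like cells, both core subunits.
Ndufs3 (15.1, 18.2 and 12.1 CPM; 0.667, 0.534 to 0.825) and Ndufa8 (27.0, 25.9 and 16.8 CPM; 0.648, 0.537 to 0.776) were lower in acinar-like cells. Ndufc2 was at 186, 213 and 118 CPM in endothelial-like cells (0.552, 0.443 to 0.682), and Ndufb10 at 167, 157 and 109 CPM in ductal-like cells (0.692, 0.626 to 0.764). Ndufa8 was lower in macrophage-like cells as well (0.622, 0.416 to 0.918). Intervals included 1 for Ndufs4 in macrophage-like cells (0.635, 0.366 to 1.07) and for Ndufs1 (1.35, 0.821 to 2.21) and Ndufb4 (1.54, 0.852 to 2.75) in fibroblast-like cells.

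In the other complexes, Uqcrc1 was at 88.0 and 42.5 CPM in mural-like cells (42 and 13 UMIs; 0.483, 0.238 to 0.918), and Uqcrc2 at 50.7, 68.8 and 48.1 CPM in endothelial-like cells (0.699, 0.487 to 0.986). Cox7a1 in ductal-like cells had a ratio of 0.515 (0.277 to 0.928) on 34 and 19 UMIs. Atp5mpl, a small subunit of complex V, was higher in ductal-like cells (212, 173 and 203 CPM; 1.17, 1.08 to 1.27). Atp5k was at 78.5, 76.7 and 92.9 CPM in acinar-like cells (1.21, 1.12 to 1.31), and Atp5c1, the gamma subunit that turns within complex V, at 126 and 81.8 CPM in mural-like cells (0.650, 0.391 to 1.05).
Relative to the other complexes, complex II had ratios of 0.99 (0.93 to 1.05) in ductal-like, 1.05 (0.88 to 1.26) in endothelial-like, 0.97 (0.83 to 1.15) in fibroblast-like and 0.92 (0.77 to 1.11) in macrophage-like cells, and of 0.89 (0.79 to 0.996) in acinar-like cells. The first 4 intervals include 1, which does not show that complex II stayed the same. The acinar-like ratio turned to 1.04 at a clustering resolution of 0.5.

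Members lower in all 5 classes were 20 of 74 in diabetic exercise over diabetic sedentary (13.4% of all genes), and 3 were higher in all 5 (Atp5k, Atp5mpl and Ndufa2; 9.47% of all genes). Scaled to total UMIs, 2 were lower in all 5 and 17 higher, thinned 6 and 6, and by the total without mitochondrial genes and acinar markers 10 and 13. No share of all genes is given beside the counts under these other settings, so they do not set members apart from other genes. Of cytosolic ribosomal proteins, 17 of 76 were lower in all 5 and 17 higher. Atp5j, whose promoter is shown above, stood at 82.1, 72.6 and 62.9 CPM in acinar-like, 459, 381 and 297 CPM in ductal-like and 315, 250 and 204 CPM in endothelial-like cells. It was at 223, 205 and 167 CPM in fibroblast-like and at 223, 180 and 146 CPM in macrophage-like cells. None was the highest and diabetic exercise the lowest library in all 5 classes.

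RNA of the 13 proteins encoded in mitochondrial DNA differed more between libraries than the nuclear members did. Per nuclear member UMI there were 0.894, 2.62 and 4.61 mitochondrially encoded UMIs in acinar-like, 0.638, 1.58 and 2.38 in ductal-like and 1.12, 3.63 and 6.07 in endothelial-like cells. The values were 1.23, 3.06 and 4.43 in fibroblast-like, 0.889, 2.57 and 3.7997 in macrophage-like and 1.23, 3.45 and 4.83 in mural-like cells.
The order of the libraries was the same in all 6 classes. The ratio was higher by a factor of 2.47 (2.42 to 2.53) in ductal-like to 3.24 (3.09 to 3.40) in endothelial-like cells for diabetic sedentary over none, and of 1.40 (1.33 to 1.47) in mural-like to 1.76 (1.73 to 1.78) in acinar-like cells for diabetic exercise over diabetic sedentary. Under the settings run, these factors lay between 2.29 and 3.95 and between 1.27 and 3.03, the last in acinar-like cells with the unnamed barcodes added. Over all barcodes, the median share of mitochondrial UMIs was 0.708%, 2.20% and 6.995%. That share is also a sign of cell damage in dissociated tissue, and its part in the ratio was not tested.

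**Figure D5:**
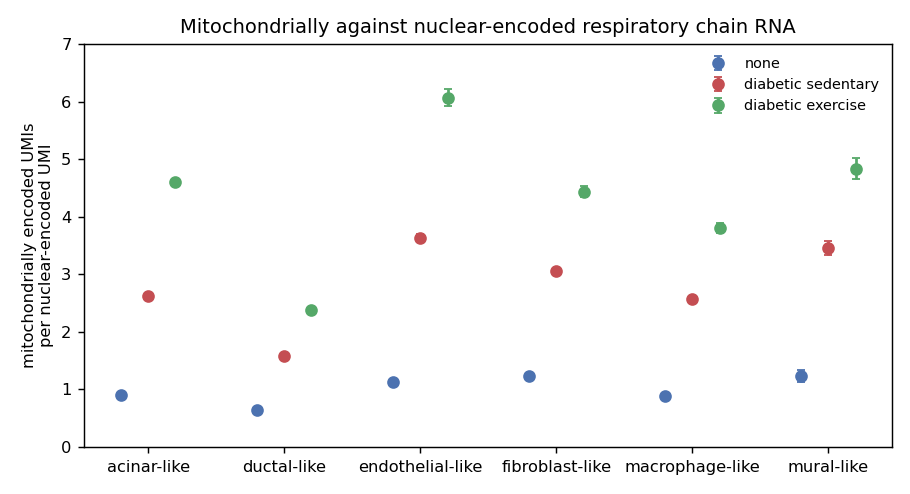
UMIs of the 13 mitochondrially encoded proteins per UMI of the nuclear members (y axis) by cell class (x axis) and library (colour), with 95% intervals for counting error. None lies lowest and diabetic exercise highest in each class, between 0.638 and 6.07.

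Neighbouring pathways did not all follow the members from none to diabetic sedentary in the classes where members were lower. The values use the main scaling factors, and other scalings and acinar-like cells are not given for them. Of 16 enzymes of the tricarboxylic acid cycle, which supplies NADH and succinate, 14 were higher in ductal-like cells (median log2 0.25), 8 in endothelial-like (0.04), 8 in fibroblast-like (0.01) and 8 in macrophage-like cells (-0.03). Of glycolytic enzymes measured, 9 of 13 were higher in ductal-like (median 0.10), 4 of 12 in endothelial-like (-0.18), 6 of 14 in fibroblast-like (-0.01) and 11 of 13 in macrophage-like cells (0.39).
Assembly factors, which build the complexes, had medians of -0.06 in ductal-like, -0.11 in endothelial-like, -0.04 in fibroblast-like and -0.19 in macrophage-like cells. Mitochondrial ribosomal proteins stood at -0.08, -0.17, -0.11 and -0.23 in that order, import and outer membrane genes at -0.19, -0.13, -0.18 and -0.23, and cytosolic ribosomal proteins at -0.25, -0.22, -0.36 and -0.24. Regulators of mitochondrial biogenesis, 6 to 11 of 12 measured, stood at 0.09, -0.12, 0.13 and 0.27, and chain components outside the symbol rule, such as Cycs and Cyc1, at 0.03, -0.07, 0.02 and -0.17.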

How the data were processed

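The 3 libraries were made with the 10x Chromium 3-prime kit (V3), per the labels' protocols. The authors deposited raw UMI counts per gene and barcode. Cell Ranger 7.1.0 is named in the submitters' processing notes and 6.1.2 in the file headers. For the build, not given in the sources used here, no statement is made, but all 55450 identifiers matched GENCODE M21.

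Barcodes with at least 500 UMIs, 200 genes and at most 20% mitochondrial UMIs were kept. Scrublet (scanpy 1.11.5) marked 0% as doublets, so the top 5% by score were removed. Cells were clustered (2000 variable genes, 30 components, 15 neighbours, Leiden resolution 1) and named from markers. UMIs were summed per class and library and scaled with edgeR 4.0.16 TMM factors. Factors first taken over every gene seen shifted simulated unchanged genes by depth, so genes under 20 UMIs were left out of the factors, a change made after values from the first factors had been seen. The scripts were tested on simulated data in all 6 classes, where the libraries shared a profile but for a set of changed genes. No difference in acinar or mitochondrial RNA between libraries was simulated, so the test cannot show how the factors handle one. Its check of unchanged genes went from a median of ratios to a pooled ratio when the factors were changed. Genes needed 20 UMIs over the 2 libraries, log2 ratios used a prior count of 0.5, and classes needed 50 cells per library. No p-value was computed, as there was 1 library in each group. Intervals of ratios between libraries are exact conditional Poisson, and those of relative shares and of ratios of ratios use a normal approximation on the log scale. DESeq2 1.42.0 size factors were an alternative.

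Members, lists and tests were chosen with earlier results of these data known. Named genes were the 3 members with most UMIs per complex. Also named were the 2 highest and 2 lowest ratios per class and comparison (50 UMIs or more). The Atp5g and Cox7a isoforms, catalytic and electron-carrying subunits, Cox4i1 and entries at 0 UMIs were named as well. Class-specific, promoter and shared-direction genes, and the alternatives on ductal-like clusters, unnamed barcodes and all-gene TMM factors, were chosen after the data were seen. Proteins were not analysed here. Values of 1 member are not reported here, though it enters the counts, sums and medians.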

Additional observations from a re-analysis of the deposited data

How the results depend on the processing

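No paired analysis was possible because each group has 1 library. By total UMIs of the class, medians for diabetic sedentary over none became -0.22 (acinar-like), 0.12 (ductal-like), 0.17 (endothelial-like), 0.14 (fibroblast-like) and 0.093 (macrophage-like), and for diabetic exercise over diabetic sedentary 0.28 (acinar-like), -0.048 (ductal-like), 0.0043 (fibroblast-like) and 0.40 (mural-like), with 3 and 2 members lower in all 5 classes. By the total without mitochondrial genes and acinar markers they were -0.080, -0.13, -0.079 and -0.10 (ductal-like, endothelial-like, fibroblast-like, macrophage-like; first comparison), 0.088 and -0.082 (acinar-like, ductal-like; second), with 17 and 10 members lower in all 5. TMM factors over every gene seen gave -0.13 (ductal-like) and -0.18 (endothelial-like) in the first comparison and -0.17 (fibroblast-like) in the second. With acinar RNA subtracted the first comparison gave -0.10 (endothelial-like), -0.13 (fibroblast-like) and -0.17 (macrophage-like), with 18 members lower in all 5. Thinning to 1000 UMIs per cell gave -0.37 (fibroblast-like) in the first comparison and 0.24 (endothelial-like), 0.094 (fibroblast-like) and 0.090 (macrophage-like) in the second, with 14 and 6 members lower in all 5, and relative complex II ratios of 1.10 (ductal-like) and 1.08 (fibroblast-like) in the first and 0.72 (macrophage-like) and 1.53 (mural-like) in the second. Clustering settings moved the acinar-like median of the second comparison to -0.39 (resolution 0.5) and -0.25 (resolution 2), the complex II ratio there to 1.04 (resolution 0.5), and the macrophage-like median of the first to -0.36 (resolution 2), and a mitochondrial ceiling of 10% gave -0.23 in acinar-like cells (second). The cause of these moves was not tested. The other 105 alternative medians and 63 complex II ratios stayed within the members' spread or counting interval, while 76 of the alternative counts past 1.5-fold left a factor of 1.5 and 192 did not. Of the alternative mitochondrial-to-nuclear factors 42 left their counting interval and 26 did not, all above 1, and of the counts of members higher in all 5 classes 7 moved by over 1.5 times and 17 did not, from 0 to 17 members. Counts of members under the alternatives are given without the share of all genes. Depth limits single genes in mural-like and endothelial-like cells most.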
